A study of Homo sapiens with 4 samples.

Results

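The D-type cyclins, their kinases, the brakes on those kinases and the retinoblastoma gene were followed in human cells given atovaquone or vehicle. The genes were fixed by name as CCND1, CCND2, CCND3, CDK4, CDK6, CDKN1B, CDKN2A, CDKN2C, SKP2 and RB1, and a probe set belonged to a gene when the platform's probe annotation gave that symbol alone. Of the 10 genes, 9 had a probe set, each of them 1, among 18417 genes on the array, and CDKN2C, which encodes the CDK inhibitor p18, had none listed and is not analysed here. U266 is a multiple myeloma line, and it was exposed to 15 µM atovaquone or to DMSO vehicle for 2 h. K562 is a chronic myeloid leukaemia line, and it was exposed to 20 µM atovaquone or to vehicle for 5 h. Each of the 4 groups was 1 array, so no test was possible, and every ratio describes a pair of arrays. Line, dose and time differ together and cannot be told apart. Atovaquone is an antimalarial naphthoquinone and an inhibitor of mitochondrial complex III. All cells had been moved into fresh medium the day before, per the labels' protocols.

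D-type cyclins bind CDK4 or CDK6 in the G1 phase and start the phosphorylation of the retinoblastoma protein, which frees E2F transcription factors to switch on genes of DNA replication. The INK4 inhibitors, among them p16 from CDKN2A, block CDK4 and CDK6, while p27 from CDKN1B mainly blocks CDK2 complexes and is marked for destruction by the F-box protein SKP2. Myelomas usually carry high levels of at least one D cyclin, and U266 is known for an insertion of immunoglobulin heavy chain enhancer sequence beside CCND1. K562 is known to carry a homozygous deletion that takes in CDKN2A.

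Of the 10 genes, 8 had a promoter window in the RefSeq table of build GRCh38.p14, covering 250 bases before to 50 bases after a gene start. The windows of 3 genes are shown, because CDK4 stayed nearly level between lines that differ widely in MYC, because SKP2 had the lowest ratio with atovaquone, and because CDKN2A has 2 starts that its single probe set does not separate. In the CDK4 window, on the minus strand at chr12:57752261-57752560, capitals mark the E-box CACGTG, the palindromic site that MYC binds. In the other windows, capitals mark the GC box GGGCGG read on either strand. They lie on the plus strand at chr5:36151861-36152160 for SKP2, and on the minus strand for CDKN2A, at chr9:21974808-21975107 for the start used by p16 and at chr9:21995275-21995574 for the start used by the ARF protein.
CDK4: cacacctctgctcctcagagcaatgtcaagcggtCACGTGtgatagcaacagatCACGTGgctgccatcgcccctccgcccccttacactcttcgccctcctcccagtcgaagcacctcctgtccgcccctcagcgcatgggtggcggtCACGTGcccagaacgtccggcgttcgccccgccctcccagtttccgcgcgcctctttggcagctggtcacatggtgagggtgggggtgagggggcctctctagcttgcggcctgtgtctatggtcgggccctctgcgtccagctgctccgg
SKP2: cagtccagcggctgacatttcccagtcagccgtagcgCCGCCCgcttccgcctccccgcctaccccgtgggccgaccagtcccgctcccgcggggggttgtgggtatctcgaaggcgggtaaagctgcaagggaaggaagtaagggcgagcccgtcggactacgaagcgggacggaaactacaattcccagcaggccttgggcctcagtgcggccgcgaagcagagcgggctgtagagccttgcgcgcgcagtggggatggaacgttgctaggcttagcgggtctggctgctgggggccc
CDKN2A p16 start: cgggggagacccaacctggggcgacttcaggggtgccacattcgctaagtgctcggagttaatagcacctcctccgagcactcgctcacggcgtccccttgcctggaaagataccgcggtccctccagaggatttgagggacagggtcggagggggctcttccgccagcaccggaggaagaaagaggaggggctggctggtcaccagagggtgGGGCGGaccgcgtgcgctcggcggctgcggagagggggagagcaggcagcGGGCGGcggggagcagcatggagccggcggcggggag
CDKN2A ARF start: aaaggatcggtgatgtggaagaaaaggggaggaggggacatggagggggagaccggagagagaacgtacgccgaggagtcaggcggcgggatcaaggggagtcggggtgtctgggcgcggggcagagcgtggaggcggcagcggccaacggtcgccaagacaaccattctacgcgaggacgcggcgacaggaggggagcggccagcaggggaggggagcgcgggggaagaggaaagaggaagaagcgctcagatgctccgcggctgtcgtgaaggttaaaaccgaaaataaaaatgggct
The CDK4 window holds 3 E-boxes, whose first bases lie 216, 196 and 101 bases before the gene start, and 7.26% of all 35116 promoter windows hold at least 1. Windows of CDK6 and CDKN2C, not printed, also hold an E-box. The SKP2 window holds 1 GC box and the p16 window 2, against 0 in the ARF window, and 44.95% of all windows hold at least 1. GC boxes also lie in the CDK4 window, where they are not marked, and in windows of CCND3, CDK6, CDKN1B and CDKN2C. A match describes the letters of the window and is not a measured binding site.

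The lines differed in which D cyclins and kinases were high. CCND1 and CDKN2A were higher in U266, CCND3, CDK6, RB1 and, less so, SKP2 were higher in K562. CCND2 and CDKN1B were moderately higher in U266, and CDK4 differed least. An array's floor was set at its 40th percentile over annotated probe sets, at intensities of 324 and 331 on the U266 atovaquone and vehicle arrays and 306 and 305 on those of K562, and a probe set under it counts as not measured. Between the vehicle arrays, bounds included, U266 had 2 of 9 members at least 2-fold higher and 3 at least 2-fold lower. Over all 12574 genes measured on at least 1 of those arrays, the shares were 11.2% higher and 8.85% lower. At 1.5-fold, 3 members were higher, against 21% of those genes, and 4 were lower, against 17.7%. The atovaquone arrays form a separate pair, in which 2 members were at least 2-fold higher in U266, against 11.5% of genes, and 4 were at least 2-fold lower, against 9.08%. All 9 members had the same direction in both pairs. The arrays of a line were nearly alike, with rank correlations of 0.989 in U266 and 0.990 in K562. The pairs are therefore not replicates. In bulk RNA, fewer cells with a transcript and less of it per cell cannot be told apart.

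**Figure D1:**
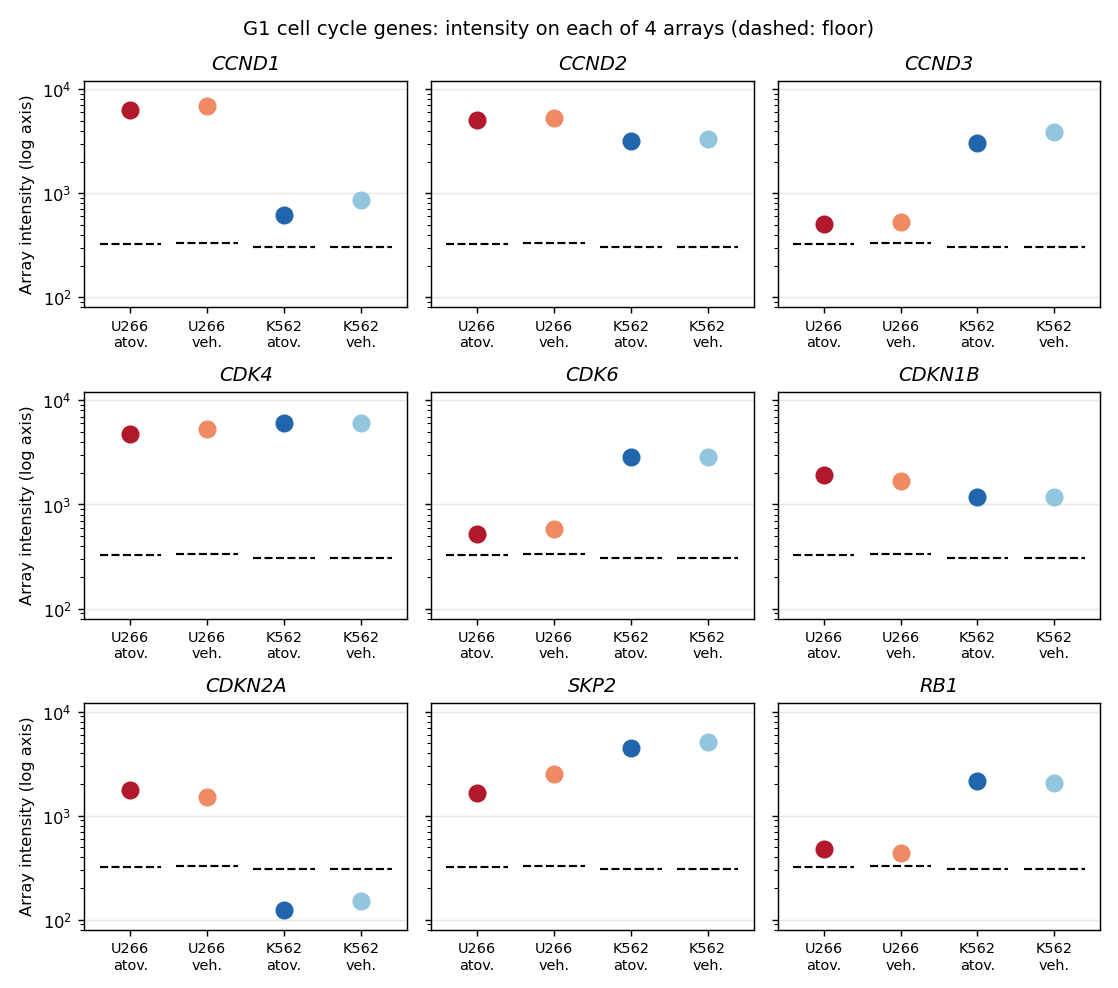
Array intensity (log axis) of the 9 members on each of the 4 arrays, with U266 atovaquone, U266 vehicle, K562 atovaquone and K562 vehicle from left to right. Each point is 1 array and each dashed line is that array's floor. CDKN2A lies under the floor in K562 alone, and CCND3, CDK6 and RB1 lie just above it in U266.

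Among the cyclins, CCND1 had intensities of 6288 and 6884 on the U266 atovaquone and vehicle arrays, and of 622 and 865 on the K562 atovaquone and vehicle arrays. The gene was 8.10-fold higher in U266 on the vehicle arrays and 10.3-fold higher on the atovaquone arrays. Of 9483 genes measured on both vehicle arrays, 22 were as far or further on the U266 side, a count that, like those below, includes the gene itself. CCND3 ran the other way, at 513 and 529 on the U266 atovaquone and vehicle arrays, against 3014 and 3891 in K562. It was 7.23-fold lower in U266 with vehicle and 5.76-fold lower with atovaquone, and 18 genes were as low or lower between the vehicle arrays. CCND2 was bright in both lines, at 5114 and 5290 on the U266 atovaquone and vehicle arrays, against 3197 and 3343 in K562. It was 1.61-fold higher in U266 with vehicle and 1.63-fold higher with atovaquone.

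The partner kinases differed from each other in pattern. CDK6 stood at 526 and 580 on the U266 atovaquone and vehicle arrays, against 2856 and 2889 in K562, which made it 4.90-fold lower in U266 with vehicle and 5.32-fold lower with atovaquone. Both U266 values lay close to the floor, at 1.62 and 1.75 times its intensity. CDK4 stood at 4729 and 5257 on the U266 atovaquone and vehicle arrays, against 6102 and 6023 in K562. Its log2 difference, U266 minus K562, was −0.17 between the vehicle arrays and −0.34 between the atovaquone arrays, beside its own log2 ratio of −0.14 between the U266 arrays. MYC, whose protein binds the E-box printed in capitals for CDK4, stood at 683 and 385 on the U266 arrays, against 6856 and 6803 in K562. MYC was 17.4-fold lower in U266 with vehicle and 9.84-fold lower with atovaquone, while CDK4 was 1.13-fold and 1.26-fold lower. CDK6, which has an E-box in 1 of its windows, 31 bases past the gene start, was 4.90-fold and 5.32-fold lower, the same direction as MYC. CCND3, RB1 and SKP2, with no E-box in their windows, were also lower in U266. CDKN1B and CDKN2A, likewise with none, were higher there. Whether MYC acts on either kinase gene was not tested. The U266 vehicle value of MYC was 1.16 times the floor, so its 17.4-fold and its ratio with atovaquone rest on a dim signal.

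Of the brakes, CDKN2A was measured in U266 alone. Its intensity was 1750 and 1510 on the U266 atovaquone and vehicle arrays, against 125 and 150 in K562, which is 0.41 and 0.49 times the floor there. It was therefore at least 5.03-fold higher in U266 with vehicle and at least 5.83-fold higher with atovaquone. Its probe set lists transcripts of both p16 and ARF, so the proteins' shares of the signal are not known. CDKN1B, which encodes p27, stood at 1925 and 1690 on the U266 atovaquone and vehicle arrays, against 1189 and 1181 in K562. It was 1.46-fold higher in U266 with vehicle and 1.65-fold higher with atovaquone. SKP2, the receptor of the ligase that removes p27, was lower in U266, at 1637 and 2530, against 4476 and 5111 in K562. The size was 1.99-fold between the vehicle arrays, just under the 2-fold mark, and 2.68-fold between the atovaquone arrays.

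RB1 stood at 478 and 436 on the U266 atovaquone and vehicle arrays, against 2132 and 2046 in K562. It was 4.61-fold lower in U266 with vehicle and 4.37-fold lower with atovaquone, and 70 of 9483 genes were as low or lower between the vehicle arrays. The U266 values were 1.48 and 1.32 times the floor, the lowest among the members measured there. CCND3 and CDK6 also lay near the floor in U266, and with it at the 60th percentile all 3 genes had only bounds between the lines, at least 5.63-fold lower for CCND3, 4.18-fold for CDK6 and 2.96-fold for RB1.

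**Figure D2:**
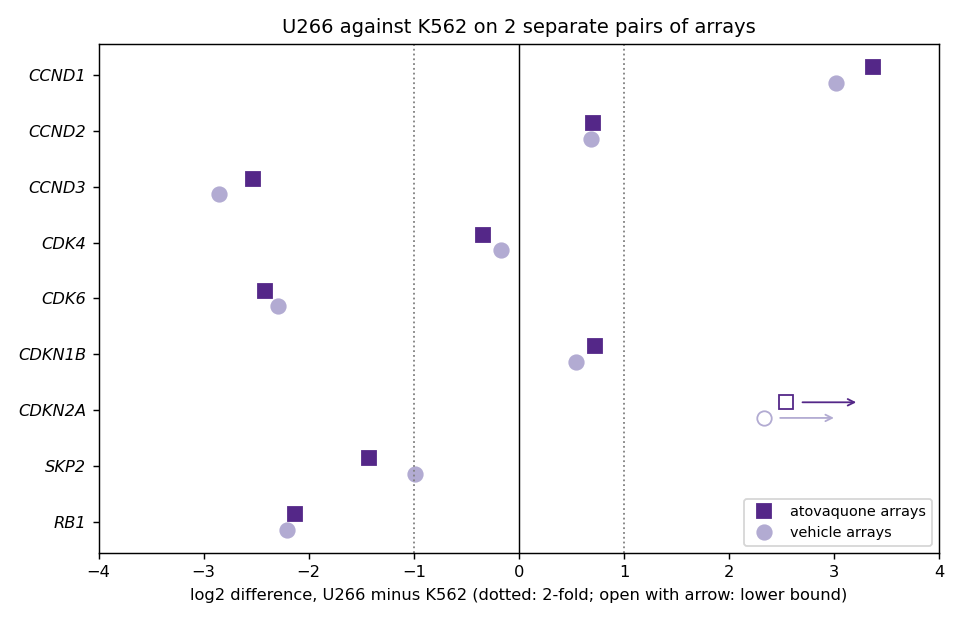
Log2 difference, U266 minus K562, of each member on the atovaquone arrays (squares) and on the vehicle arrays (circles). Dotted lines mark 2-fold, and open symbols with arrows are lower bounds for CDKN2A. The pairs of symbols lie close together, and CCND1 and CCND3 stand at opposite ends.

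Genes on either side of a member on its chromosome were set beside it for the 5 members at least 2-fold different between the vehicle arrays, a choice made after their values were seen. Around CCND1, within 4 protein-coding genes on each side, the neighbours measured on both vehicle arrays were all lower in U266. MYEOV, a gene found beside CCND1 in myeloma rearrangements, was 1.52-fold lower in U266 with vehicle, LTO1 1.22-fold lower and FGF4 1.38-fold lower, though LTO1 lay at the floor in U266 with vehicle and under it with atovaquone. MYEOV stood at 386 in U266 and 409 in K562 with atovaquone, so its difference was smaller there. FGF19 was under the floor on both vehicle arrays. MRGPRF, measured in U266 alone, was at least 1.66-fold higher there, and TPCN2, measured in K562 alone, at least 1.39-fold lower in U266. Next to CDKN2A, the methylthioadenosine phosphorylase gene MTAP stood at 1005 and 990 on the U266 atovaquone and vehicle arrays, against 309 and 367 in K562, and was 2.75-fold higher in U266 with vehicle. The K562 atovaquone value of MTAP lay at the floor of 306. CDKN2B, the p15 gene, was 1.83-fold higher in U266 with vehicle. Its K562 atovaquone and vehicle values of 599 and 547 were 1.96 and 1.79 times the floor. Signals this close to the floor may be background. DMRTA1, on the far side of CDKN2B, had a log2 difference of 0.19. Beside RB1, MED4 was 1.58-fold and SUCLA2 1.69-fold lower in U266 with vehicle, and ITM2B had a log2 difference of 0.17. All 5 measured neighbours of CCND3 were, like CCND3, lower in U266 with vehicle, from 1.42-fold for TAF8 to 3.71-fold for C6orf132. Around CDK6 the directions were mixed, with SAMD9L at least 10.5-fold and SAMD9 1.85-fold higher in U266, and HEPACAM2 at least 2.10-fold, VPS50 1.61-fold and RBM48 1.38-fold lower.

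The genes nearest to a member over the 4 arrays were found among 12843 genes. The distance was taken between log2 intensities centred on each gene's mean, with values under the floor set to the floor. For CCND1 the nearest was the plasma cell gene SDC1 at a distance of 0.23, and for CCND3 it was MLLT11 at 0.09. CDK6 lay nearest to EXOC3 at 0.04 and to MYB, a transcription factor gene of blood progenitors, at 0.05. RB1 lay nearest to NMRAL1 at 0.04, CDKN2A to NDRG1 at 0.06 and SKP2 to XRCC2 at 0.25. CDKN2A and NDRG1 were both under the floor on the K562 arrays, so both took the floor value there. Each distance rests on 4 arrays.

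In U266 the question was how these genes stood after a short exposure to atovaquone. SKP2 was 1.54-fold lower with atovaquone, and no other member reached 1.5-fold. Its intensity was 1637 with atovaquone and 2530 with vehicle, or −0.62 in log2 ratio. Both U266 arrays measured 10731 genes, and 7 had a ratio as low or lower. At least 1.5-fold lower were 1 of 9 members, against 0.0932% of all measured genes, and at least 1.5-fold higher were 0 of 9, against 0.857%. SKP2 lay far outside the central 95% of all measured genes, which ran from −0.28 to 0.34, and the other 8 members lay inside it.

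The remaining U266 ratios were small. The member cyclins and kinases were all below 0, with log2 ratios of −0.12 for CCND1, −0.04 for CCND2, −0.03 for CCND3, −0.14 for CDK4 and −0.13 for CDK6. CDKN2A stood at 0.22, CDKN1B at 0.20 and RB1 at 0.14. Of 5 other CDK inhibitor genes, 3 were above 0 and the median was 0.02, with CDKN1A at −0.20 and CDKN2B at −0.02. The RB relatives RBL1 and RBL2 stood at −0.04 and −0.0055. CDKN1B, the gene of the protein that SKP2 removes, was 1.15-fold higher, a size that 782 of 10731 genes reached or passed. The log2 ratios of all measured genes had an SD of 0.18, and with 1 array per group values of this size cannot be told from array scatter. The median of the 9 members was −0.04, against a median of all measured genes that centring sets near 0.

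**Figure D3:**
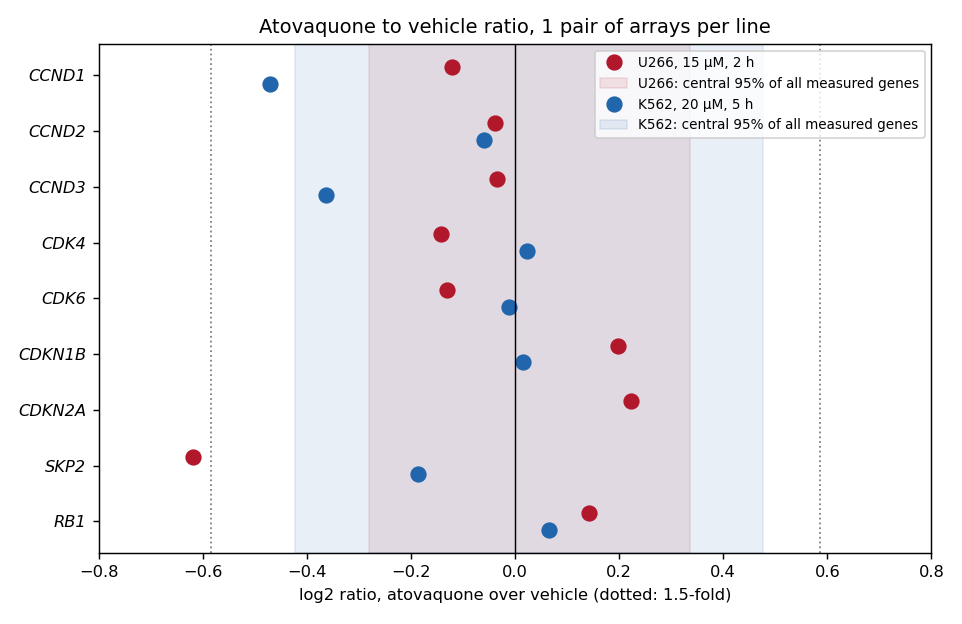
Log2 ratio of atovaquone over vehicle for each member in U266 (red) and K562 (blue), 1 pair of arrays per line. Shaded bands hold the central 95% of all measured genes and dotted lines mark 1.5-fold. SKP2 in U266 at −0.62 is the single point past a dotted line, and CCND1 in K562 at −0.47 lies outside its band.

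In K562 the lowest ratios belonged to CCND1 and CCND3. CCND1 stood at 622 with atovaquone and 865 with vehicle, a log2 ratio of −0.47, or 1.39-fold lower, and 181 of 10756 measured genes were as low or lower. CCND3, the D cyclin that was higher in this line, stood at 3014 with atovaquone and 3891 with vehicle, at −0.36, or 1.29-fold lower, and 446 genes were as low or lower. The central 95% of all measured genes ran from −0.42 to 0.48, so CCND1 lay outside it and CCND3 inside. No member reached 1.5-fold, 0 of 8 measured in either direction, against 0.697% of all genes lower and 1.42% higher.

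SKP2 in K562 had intensities of 4476 with atovaquone and 5111 with vehicle, a log2 ratio of −0.19, against −0.62 in U266. Whether these ratios differ was not tested, and dose and time differ too. The other members were near 0 in K562, with log2 ratios of −0.06 for CCND2, −0.01 for CDK6, 0.024 for CDK4, 0.01 for CDKN1B and 0.06 for RB1. CDKN2A was under the floor on both K562 arrays and has no ratio. All 3 D cyclins had ratios below 0 in both lines, and the smallest sizes were those of CCND2 in K562 and CCND3 in U266.

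Companion lists held the partners and targets of these genes, chosen with earlier results of these data known. Of all genes measured in U266, 0.0932% were at least 1.5-fold lower and 0.857% at least 1.5-fold higher. In U266, 11 of 12 measured genes of the RB family, the E2F factors and their DP partners were below 0, with a median log2 ratio of −0.10, and 0 reached 1.5-fold in either direction. Lowest was E2F8, a repressor E2F, at −0.31. Of 10 genes of cyclin E and A, CDK2 and CDK activation, 6 were above 0, with a median of 0.02, and 0 reached 1.5-fold. Quantile normalisation put 4 above 0. CCNE1, the cyclin E partner of CDK2, stood at 667 with atovaquone and 907 with vehicle, or −0.43, and CDC25A, the phosphatase that activates CDK2, at −0.35. MNAT1, an assembly factor of the CDK-activating kinase, was on the high side at 0.31. The list of E2F-regulated S phase genes was centred, with a median of −0.03 and 10 of 23 members above 0, from −0.27 for GINS1 to 0.13.

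The ligase that carries SKP2 did not share its ratio in U266. Of 16 measured parts of this and related ligases, 11 were above 0, the median was 0.04 and 0 reached 1.5-fold, while quantile normalisation put 8 above 0. The CDK inhibitor genes outside the members ranged from −0.20 for CDKN1A, the p21 gene, to 0.05 for CDKN3. In the list of transcription factors and other regulators of these genes, which also holds the kinase gene GSK3B and the coactivator gene CTNNB1, MYC was the single one of 11 measured past 1.5-fold, at 683 with atovaquone and 385 with vehicle, a log2 ratio of 0.84. FOXO4, of the FOXO family that activates CDKN1B, stood at −0.22. CDK4, with its 3 E-boxes, had a log2 ratio of −0.14 on the same arrays. Whether MYC acts on CDK4 was not tested, and the U266 vehicle value of MYC was 1.16 times the floor.

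In K562 these lists held 0 genes past 1.5-fold, against 0.697% of all measured genes lower and 1.42% higher. Shares this small leave few genes to be reached in lists of this size. CDC25A was lowest of the cyclin E and CDK2 list, at 967 with atovaquone and 1407 with vehicle, or −0.54, and the list median was −0.15 with 7 of 10 members below 0. E2F5 stood at −0.49 and the repressor E2F7 at −0.41, whereas the RB relatives RBL1 and RBL2 stood at 0.35 and 0.32. Among ligase parts, FBXO4, an F-box protein gene tied to cyclin D1 turnover, was highest at 0.54 and FBXW8 stood at 0.43, and the deubiquitinase gene USP2 was lowest at −0.42. CDKN1A stood at 0.22, against −0.20 in U266. The K562 vehicle values of FBXO4 and CDKN1A were 1.38 and 1.24 times the floor, so their K562 ratios rest on dim signals. Of 23 S phase genes, 13 were above 0 and the median was 0.0064 (9 above 0 and −0.02 after quantile normalisation), with GINS1 lowest at −0.53 and CDT1, a replication licensing factor, highest at 0.36. MYC stood at 0.02.

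**Figure D4:**
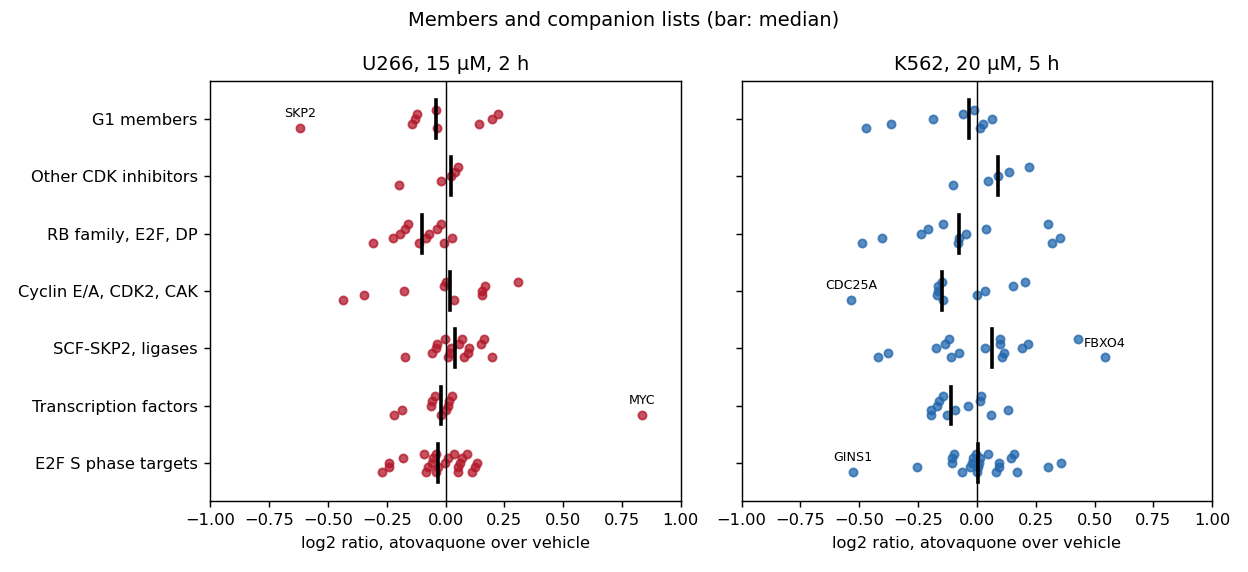
Log2 ratio of atovaquone over vehicle for the members and for each companion list in U266 (left) and K562 (right). Each point is 1 gene measured on both arrays, bars are list medians, and CAK stands for the CDK-activating kinase. Most points lie within 0.50 of 0, and SKP2 at −0.62 and MYC at 0.84 are the outlying genes in U266.

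Between the lines, the companions also split. CDKN1A was 3.78-fold higher in U266 with vehicle, though its K562 vehicle value was only 1.24 times the floor. CCNE2, the other cyclin E, was 3.41-fold higher in U266 with vehicle. It stood at 3120 and 3549 on the U266 atovaquone and vehicle arrays, against 942 and 1060 in K562. TFDP2, a DP partner of E2F, was 3.35-fold lower in U266, and among E2F factors E2F2 was 2.48-fold higher while E2F3 was 2.18-fold lower. The S phase list had 7 of 23 members at least 1.5-fold lower in U266 and 1 higher, against 16.2% and 17.7% of genes measured on both vehicle arrays. CDC45, a subunit of the replicative helicase, led the low side at 4.25-fold. STAT5B, a factor that acts on D cyclin genes, was 5.41-fold lower in U266, and STAT5A was under the floor there and at least 9.66-fold lower. MYB was 5.09-fold lower in U266 with vehicle, beside 4.90-fold for CDK6, to which it lay near over these same arrays. Among the D cyclins, CCND3 was lower in U266, and CCND1 and CCND2 were higher. Whether STAT5A, STAT5B or MYB acts on the members was not tested.

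Markers of the labelled cell types were as follows. All 9 measured erythroid and megakaryocytic markers were at least 1.5-fold lower in U266 with vehicle, bounds included, and 9 of 10 plasma cell markers were at least 1.5-fold higher. The exception was CD38, with a log2 difference of −0.73. Of 5 T cell markers, 2 were measured on both vehicle arrays, CD3E at a log2 difference of 0.36 and CD8A at −0.20, CD3D had a bound of at least 1.41-fold lower in U266, and CD4 and CD2 were under the floor. Of 5 fibroblast and epithelial markers, 3 were under the floor on both vehicle arrays and COL1A1 had a log2 difference of −0.25. EPCAM, an epithelial adhesion gene, stood at 63.5 in U266 with vehicle, against 1975 in K562, and was at least 5.87-fold lower in U266.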

How the data were processed

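Expression was measured on 1 array for each of 4 groups. Biotinylated cRNA was made by the usual Affymetrix method, per the labels' protocols. The authors deposited an intensity on a linear scale for 33252 probe sets, and their software, background correction and normalisation were not given in the sources used here. Of these probe sets, 21214 were listed in the probe annotation, 19460 with 1 symbol, 1754 with several and 12038 unlisted. Only those with 1 symbol were used, and 19429 of them matched RefSeq by Entrez identifier. A gene with several probe sets took the brightest by mean log2 intensity.

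Values were put on the log2 scale, floored at each array's 40th percentile over listed probe sets, and differences were centred on the median of measured probe sets. That took off −0.0096 in U266, −0.0048 in K562 and −0.025 between vehicle arrays. The vehicle arrays enter both the line comparison and the atovaquone ratios. A gene under the floor on 1 array has a bound, written "at least". Array medians of 340, 339, 319 and 314 for U266 atovaquone, U266 vehicle, K562 atovaquone and K562 vehicle lay close together, and the number of arrays limits the precision. Genes were counted at 1.5-fold and 2-fold. In each companion list the genes eligible to be named were those past 1.5-fold with atovaquone, or the 4 largest, and the 4 largest between lines, of which the text names some. CD38, E2F8 and the neighbours were added after their values were seen. The members and lists were chosen with earlier results of these data known. The calculation was tested on simulated data. Alternatives were other floors, no centring, quantile normalisation, other handling of probe sets and a pseudocount of 50. Python 3.11.15, pandas 2.3.3 and numpy 2.4.6 were used.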

Additional observations from a re-analysis of the deposited data

Results flagged for a closer look

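CDK4 had ratios of opposite sign in the 2 lines, with a log2 ratio of −0.14 in U266 and 0.024 in K562. The difference between the lines was not tested, and both values lay inside the central 95% of all measured genes. Under quantile normalisation the K562 value was −0.03.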

How the results depend on the processing

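With 1 array per group, depth enters only as signal over the floor, and no array could be left out. No paired analysis was possible because each group has 1 array. The counts of members at least 1.5-fold higher or lower in each of the 3 comparisons were the same under all 8 alternatives, at 0 higher and 1 lower in U266, 0 and 0 in K562, and 3 higher and 4 lower between the vehicle arrays. Of 205 values of single members, 197 moved by no more than a spread over genes, 8 moved further and 0 of those at least 1.5-fold reversed. Those 8 were all differences between the vehicle arrays. The alternatives in how probe sets were handled could not move any member or count, because each measured member has 1 probe set and shares none. Their values are among the 197. The spread was the robust SD of the atovaquone log2 ratios over measured genes, 0.12 in U266 and 0.18 in K562. For the line comparison the smaller value was used. This spread includes any response to atovaquone and does not measure the scatter of arrays. With the floor at the 60th percentile, CCND3, CDK6 and RB1 had upper bounds of −2.49, −2.06 and −1.57 in log2 difference, and CDKN2A a lower bound of 1.27, because raising the floor shortens a bound. A floor at the 20th percentile gave CDKN2A 3.32, and it was 3.30 without a floor and 2.93 with a pseudocount of 50, under which CCND1 was 2.89. At the 60th percentile CCND3, CDK6 and RB1 had no ratio in U266, and CCND1 in K562 had an upper bound of −0.40. The log2 ratio of SKP2 in U266 ran from −0.65 to −0.60. CDK4 and CDKN1B in K562 were −0.03 and −0.0062 under quantile normalisation.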
